A study of Mus musculus with 2 samples.

Results

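Interferon-stimulated genes are the genes that cells switch on when interferons bind their receptors. They were examined here in 2 cultures of mouse embryonic fibroblasts (MEFs), connective tissue cells taken from embryos. The cultures differed in Fut8, the fucosyltransferase that attaches core fucose to N-glycans. The set held 43 genes, named from textbook knowledge of the response and sorted into 11 regulators, 9 sensors and 23 effectors. Genes and roles were chosen with earlier results of these data known. Probe sets were taken where the platform annotation gave exactly 1 of these symbols, which found 41 of the 43, among 18193 genes in all. Of these 41, 39 are called measured below, because their signal on at least 1 array reached the 60th percentile of all signals. No probe set carried the symbol Isg15 or Ifi44 alone (Isg15 is listed on 1 that also names Gm9706), and Mx1 and Mx2 did not reach that limit on either array.

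The Fut8+/+ culture carried both normal copies of the gene and the Fut8-/- culture was homozygous for the disrupted one. Both were grown in serum-containing medium with penicillin and streptomycin, and no interferon or other treatment is named. Each genotype has 1 array here, whereas the design text speaks of 3 cultures per genotype. Mouse strain, embryo, passage and immortalisation of the lines are not stated in the labels. No difference below therefore has a replicate check, genotype cannot be tested, and any pair of cultures may differ in such values. Sex-linked transcripts, given near the end, also differed, so genotype and sex cannot be told apart. In such bulk RNA, fewer cells of a responding type and less RNA per cell cannot be told apart.

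Interferons of type I signal through the receptor subunits Ifnar1 and Ifnar2 and the kinases Jak1 and Tyk2. These activate a complex of STAT proteins and Irf9 that binds a response element in the promoters of its target genes. The targets include the pathway's own regulators, sensors that recognise viral nucleic acid, and effectors that block steps of viral growth. Fibroblasts are a classical cell type for this response, and cultured fibroblasts express many of its genes at a basal level without added interferon.

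Promoter sequence is shown first, because the response element is the feature through which these genes are known to respond together. Of the 32 members with a promoter window in the RefSeq table (GRCm38.p6, 250 bases before to 50 after each gene start), 17 (53.1%) held the core of the response element, GAAA, 2 bases of any kind and GAAA, on either strand. The same core was present for 3.99% of the 27025 genes with a window and in 3.44% of the 32851 windows, some genes having several. The core of the gamma-activated sequence, TTC, 3 bases of any kind and GAA, which reads the same on both strands, was present for 10 of the 32 members (31.2%) and for 9.55% of all genes with a window. The reference is C57BL/6J sequence, so the alleles of these cultures may differ from it. The 250 bases before the start are given for Oas1a, the member with the lowest ratio, and for Irgm1, whose signals were nearly level. Capitals mark the response element core on either strand.
Oas1a, chr5:120907526-120907775, minus strand: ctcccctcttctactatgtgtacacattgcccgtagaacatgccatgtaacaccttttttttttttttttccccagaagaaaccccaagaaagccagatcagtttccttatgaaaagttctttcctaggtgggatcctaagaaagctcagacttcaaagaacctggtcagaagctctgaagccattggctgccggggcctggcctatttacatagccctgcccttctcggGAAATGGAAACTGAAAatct
Irgm1, chr11:48871421-48871670, minus strand: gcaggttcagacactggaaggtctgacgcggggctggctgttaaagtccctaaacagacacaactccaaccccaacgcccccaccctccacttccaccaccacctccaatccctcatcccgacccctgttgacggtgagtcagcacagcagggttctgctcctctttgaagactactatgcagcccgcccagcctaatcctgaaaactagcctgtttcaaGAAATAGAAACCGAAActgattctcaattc
In both promoters 2 overlapping cores lay within the last 30 bases before the start, the first of them at base -20 in Oas1a and at base -30 in Irgm1.

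Windows of 50 bases around the core are given for 7 further effectors, with the gene's own strand written. They were chosen to include genes at least 2-fold lower and genes within 2-fold.
Rsad2, chr12:26456543-26456592, minus strand: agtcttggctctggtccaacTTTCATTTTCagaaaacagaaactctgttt
Bst2, chr8:71537570-71537619, minus strand: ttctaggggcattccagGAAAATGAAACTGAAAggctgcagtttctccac
Gbp3, chr3:142559982-142560031, plus strand: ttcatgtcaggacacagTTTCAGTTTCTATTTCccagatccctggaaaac
Ifit3, chr19:34583370-34583419, plus strand: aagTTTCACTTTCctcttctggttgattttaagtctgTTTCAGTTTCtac
Igtp, chr11:58199502-58199551, plus strand: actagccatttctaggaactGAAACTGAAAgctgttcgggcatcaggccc
Ifit1, chr19:34640774-34640823, plus strand: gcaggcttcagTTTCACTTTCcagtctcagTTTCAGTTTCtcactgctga
Gbp2, chr3:142620584-142620633, plus strand: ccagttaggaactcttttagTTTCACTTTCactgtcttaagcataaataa
Rsad2, Bst2 and Gbp3 were at least 2-fold lower on the Fut8-/- array, whereas Ifit3, Igtp, Ifit1 and Gbp2 lay within 2-fold. Among members with both a promoter window and a measured signal, the core was present in 6 of 10 that were at least 2-fold lower and in 10 of 20 that lay within 2-fold. The windows of Irf7, Sp100, Oasl2 and Xaf1, all at least 2-fold lower, held no match, which says only that these letters are not within them.

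As a group the measured members were lower in the Fut8-/- culture. By at least 2-fold, 15 of 39 (38.5%) were lower and 0 were higher, where among all 10164 measured genes 8.46% were lower and 6.08% higher by that much. Without centring, these shares over all genes were 11.8% and 4.08%, and the part of higher genes among all genes past 2-fold was 25.7% in place of 41.8%. The members' median log2 ratio was -0.64, or 1.56-fold lower, and that of all measured genes was 0.00 after centring. Ratios are Fut8-/- over Fut8+/+, centred on the median of the probe sets that were above the 40th percentile on both arrays, which was -0.22, and signals are printed as deposited. Below 0 were 36 of 39 members and 49.9% of all measured genes. At least 4-fold lower were 7 members, against 2.74% of all genes. Without Sp100 and Oas2, which were measured on the Fut8+/+ array alone and fell short of 4-fold with the floor at the 60th percentile, 5 remained past 4-fold, and 1 of these 5, Xaf1, had a second probe set of the opposite sign. Other genes differed as much between these arrays: fibroblast markers had a median log2 ratio of -0.70 over 13 measured genes, with 6 (46.2%) at least 2-fold lower. Of these 6 markers 2, Prrx1 and Pdgfra, passed the measured limit through the Fut8+/+ array alone.

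**Figure D1:**
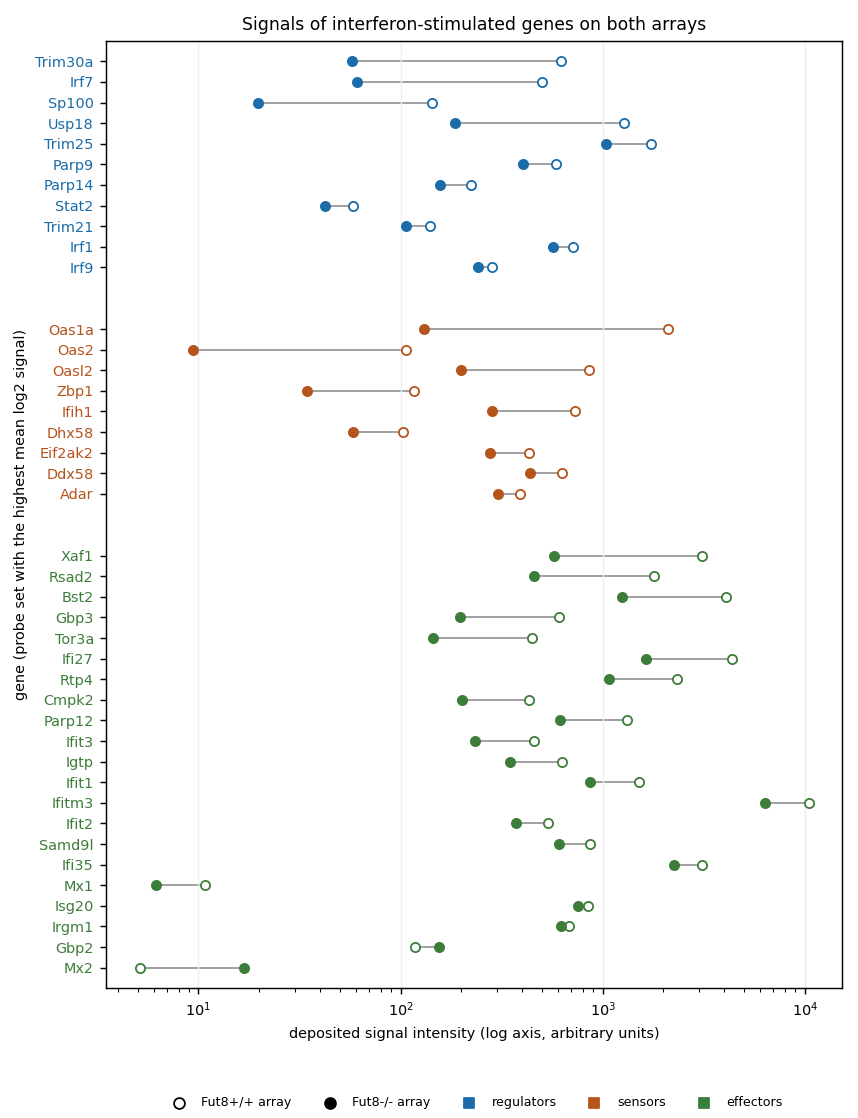
Deposited signal intensity (log axis, arbitrary units) of the 41 genes with a probe set, on the Fut8+/+ array (open circles) and the Fut8-/- array (filled circles), by role and ordered by ratio; each line joins the 2 values of a gene, and there is 1 array per genotype. As deposited, the Fut8-/- signal is the lower one for 39 of the 41 genes, with Gbp2 and Mx2 the other way. The gaps run from Oas1a, 2115 against 131, to Irgm1, 682 against 620.1. These signals are not centred, and without centring the median log2 ratio of all measured genes was -0.23. The share of all genes with a lower deposited signal was not counted. After centring, Irgm1 and Isg20 lie above 0, and Mx1 is under the measured limit.

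The regulators split into genes that were several-fold lower and genes that were nearly level, with 4 of 11 at least 2-fold lower and a median log2 ratio of -0.32. Trim30a, a tripartite-motif protein known as a brake on inflammatory signalling, read 619.8 in Fut8+/+ against 57.3 in Fut8-/- (9.30-fold lower), the order in which all signals are given. Its other probe set read 556 and 38.5, a log2 ratio of -3.64. Irf7, the transcription factor that drives type I interferon genes and amplifies the response, had signals of 504 and 60.6 and was 7.14-fold lower. All 3 of these probe sets were thus several-fold lower on the Fut8-/- array.

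Sp100, a scaffold protein of nuclear bodies, read 143 and 19.7 (6.23-fold lower), and passed the measured limit through the Fut8+/+ array alone. Usp18, the protease that removes ISG15 from proteins and dampens the type I receptor, read 1278 and 185 (5.93-fold lower). These 4 regulators were each past 4-fold, and no regulator lay between 2-fold and 4-fold.

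By contrast, the factors that carry the signal to the promoter were nearly level. Irf9, the DNA-binding part of the interferon-activated complex, had signals of 285 and 242 and a log2 ratio of -0.01. Its partner Stat2 read 58.0 and 42.4 (-0.23), with a second probe set at -0.54. Irf1, a factor shared with the type II response, read 714 and 567 (-0.11).

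The remaining regulators were also within 2-fold. The ubiquitin ligase Trim25, which acts on the RNA sensor RIG-I, read 1733 and 1044 (-0.51), and its other 2 probe sets gave -0.62 and -0.26. Trim21, an antibody receptor inside cells, read 140.1 and 107 (-0.17), and 79.9 and 44.0 at its other probe set (-0.64). Parp9 read 589 and 404 (-0.32) and Parp14 224 and 157 (-0.30). Both belong to the ADP-ribosyltransferase family.

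Sensors were at least 2-fold lower for 5 of 9, and their median log2 ratio was -1.15. The oligoadenylate synthetases, which on meeting double-stranded RNA make the messenger that activates RNase L, had the lowest ratios of this class. Oas1a read 2115 and 131 and was 13.9-fold lower. Oas2 read 107 and 9.37, the latter below the floor of 12.3 that was set on scaled signals, so its difference is a bound of at least 8.67-fold, and it passed the measured limit through the Fut8+/+ array alone. Oasl2, a relative that binds RNA, read 854 and 199 (3.68-fold lower). All 3 lie on chromosome 5.

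Zbp1, which binds left-handed nucleic acid and can start cell death, read 117 and 34.3 (2.93-fold lower). Ifih1, which encodes the long-RNA sensor MDA5, read 732 and 284 (2.22-fold lower). The related helicases were within 2-fold: Ddx58, which encodes RIG-I, read 633 and 437 (-0.32), and Dhx58, which encodes LGP2, read 103 and 58.2 (-0.61). Whether these helicases differ in ratio was not tested.

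The kinase PKR, encoded by Eif2ak2, halts translation on binding double-stranded RNA. Its signals were 433 and 278 (-0.42), and its other 2 probe sets gave -0.32 and -0.15. Adar, the deaminase that edits double-stranded RNA and keeps it from the sensors, read 392 and 304 (-0.15). The other 2 probe sets of Adar, at -0.72 and -0.89, were lower than the one used.

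Among 19 effectors measured, 6 passed 2-fold downward and 0 upward, and the median log2 ratio was -0.75. Rsad2 encodes viperin, which makes a chain-terminating nucleotide, and read 1792 and 455 (3.38-fold lower). Its other 2 probe sets gave log2 ratios of -1.80 and -1.45. Its neighbour on chromosome 12 with no coding gene between, the nucleotide kinase gene Cmpk2, read 433 and 201 (-0.89). Bst2, or tetherin, which holds budding virions at the cell surface, read 4069 and 1248 (2.80-fold lower).

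Gbp3, a guanylate-binding GTPase, read 609 and 196 (2.67-fold lower). Tor3a, of the torsin family, read 449 and 146 (2.65-fold lower), and its other 2 probe sets gave -1.30 and -1.01. Ifi27 read 4346 and 1634 (2.29-fold lower), with a second probe set at -1.41.

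Xaf1, a partner of the apoptosis inhibitor XIAP, gave opposite answers at its 2 probe sets. The one with the higher mean signal read 3105 and 577 (4.63-fold lower), whereas the other read 64.0 and 375, a log2 ratio of 2.77. No other member had probe sets more than 2-fold apart from 0 in opposite directions. The gene is therefore among the 15 lower ones only by the choice of probe set, and without Xaf1 and Gbp2 the count was 14 of 37.

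Next came effectors that missed the 2-fold limit by little. Rtp4 read 2346 and 1081 (-0.90), and Parp12, an ADP-ribosyltransferase, read 1318 and 615 (-0.88). The RNA-binding Ifit proteins, which seize foreign RNA ends, followed, with Ifit3 at 458 and 234 (-0.75), Ifit1 at 1521 and 871 (-0.59) and Ifit2 at 535 and 372 (-0.31). All 3 lie close together on chromosome 19.

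The GTPase Igtp, which attacks the vacuoles of intracellular parasites, read 631 and 347 (-0.64), and its relative Irgm1 682 and 620.1 (0.08). Ifitm3, which hinders fusion of viruses with endosomes, read 10501 and 6356 (-0.51). Samd9l, a restriction factor of poxviruses, read 868 and 609 (-0.29), and Ifi35 3106 and 2264 (-0.24).

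The exonuclease gene Isg20 read 851 and 759 (0.05). Gbp2 read 119 and 156 (0.61), but 143 and 109.6 at its other probe set (-0.16). Gbp2, Irgm1 and Isg20 were thus the 3 measured members with a ratio above 0. Mx1, which encodes a dynamin-like antiviral GTPase and is a known null allele in many laboratory strains, read 10.8 and 6.14, and Mx2 read 5.13 and 16.8. Both were too dim for a ratio.

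Probe sets of the same gene gave a measure of technical spread. In 5389 genes several probe sets exceeded the floor on both arrays, and their log2 ratios varied within a gene with an SD of 0.40, or 1.32-fold. Of the 39 members, 25 were lower by more than this SD, 13 (33.3%) lay within it and 1, Gbp2, was higher by more. Of all 10164 measured genes, 53.5% lay within it, 2434 were lower by more and 2288 higher. This spread arises within 1 pair of arrays and is no estimate of the error between cultures. Among the 15 members with several probe sets above the floor, 13 had the same sign at all of them, Gbp2 and Xaf1 being the exceptions. Of the 5389 genes, 61.8% did. A gene further from 0 keeps its sign more readily, and a smaller share of members than of all genes lay within the SD. The comparison therefore does not show better agreement of probe sets for members. Over all 59 measured probe sets of the members, 55 had a ratio below 0 and 21 were at least 2-fold lower. The shares over all probe sets were not counted. Of all measured genes, 49.9% were below 0 and 8.46% at least 2-fold lower.

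**Figure D2:**
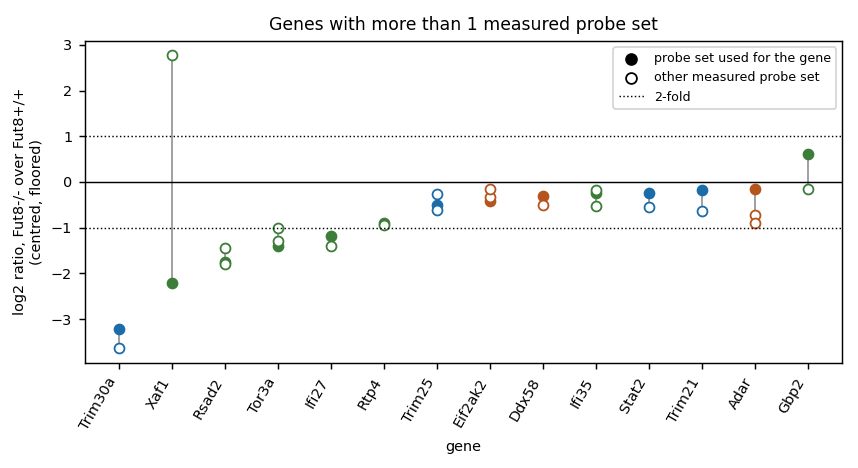
Log2 ratio of Fut8-/- over Fut8+/+ (centred and floored) of every measured probe set, for the 14 genes with more than 1; filled circles are the probe sets used for the gene, open circles the others, lines span a gene's probe sets, and colours mark regulators (blue), sensors (orange) and effectors (green). Apart from Xaf1, at -2.21 and 2.77, and Gbp2, at 0.61 and -0.16, all circles of a gene lie below 0.

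Upstream parts of the pathway were compared as a list of 39 genes for interferons, their receptors, kinases, adaptors and inhibitors, of which 30 were measured. Their median log2 ratio was -0.03, with 0 past 2-fold downward and 1 past it upward. The upward count was 2 after quantile normalization, with each chromosome centred and with no filter. It was 0 of 20 with the filter at the 75th percentile. At these settings 6.51%, 5.38%, 4.25% and 4.48% of all measured genes, in that order, were past 2-fold upward. In the main setting 8.46% of all measured genes were past 2-fold downward and 6.08% upward. Among 30 genes these shares amount to few, and whether the list differs from all genes was not tested. Measured receptor genes of type I and type II interferon were close to level, Ifnar1 reading 161 and 136 (-0.03), Ifnar2 589 and 457 (-0.15) and Ifngr1, for type II interferon, 393 and 375 (0.15). The same held for the kinase Tyk2 (126.0 and 106, -0.03). Irf3, the factor downstream of the RNA sensors, read 481 and 329 (-0.33). The kinase Jak1 read 663 and 428 (-0.41) and had the lowest ratio of the list.

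Within the probe-set SD lay 22 of 30 genes of this list (73.3%), against 53.5% of all measured genes. Of the rest, 7 were higher by more than this SD and 1, Jak1, was lower by more. The gene past 2-fold was Tlr3, the endosomal receptor for double-stranded RNA, which read 35.6 and 106 and was 3.48-fold higher; it passed the measured limit through the Fut8-/- array alone. The others with large absolute ratios were the feedback inhibitor Socs3 (371 and 581, 0.86), Stat3 (241 and 318, 0.62) and the phosphatase Ptpn6 (42.9 and 53.5, 0.54). The type III receptor gene Ifnlr1 read 12.96 and 33.4 and was just under the measured limit. Transcripts of the ligands were dim, Ifnb1 reading 15.9 and 19.1 and Ifng 1.33 and 1.09, neither of them measured.

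A second list held 72 other interferon-induced genes, of which 54 were measured. Past 2-fold were 15 downward (27.8%) and 4 upward (7.41%), and the median log2 ratio was -0.33. Lowest were Nlrc5, the activator of class I antigen presentation genes (132 and 22.2, 5.09-fold), the ligase Herc6 (588 and 106, 4.76-fold) and the helicase Ddx60 (182 and 35.9, 4.34-fold). Ifitm1, a relative of Ifitm3, was 4.40-fold higher, reading 17.6 and 66.5. The oligoadenylate synthetase genes outside the set were lower as well, Oasl1 reading 1021 and 274 (3.20-fold), Oas3 45.0 and 16.7 (2.32-fold) and Oas1b 102 and 43.7 (2.01-fold); these 3 were chosen after their values were seen. Over all measured genes the shares were 8.46% downward and 6.08% upward. Of the 4 higher genes 3 passed the measured limit through the Fut8-/- array alone, and of the 15 lower ones 5 did so through the Fut8+/+ array alone, Nlrc5 and Oas3 among them. The count of higher genes was 1 of 54 with the floor at the 60th percentile and 1 of 34 with the filter at the 75th. Of all measured genes, 4.52% and 4.48% were higher at these 2 settings. Whether this list and the members differ was not tested.

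**Figure D3:**
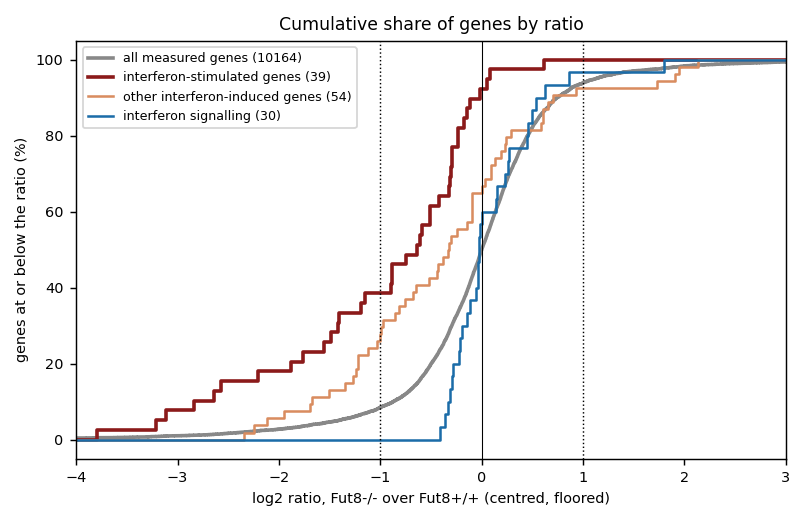
Share of genes (percent) at or below each log2 ratio of Fut8-/- over Fut8+/+ (centred and floored) for all 10164 measured genes (grey), the 39 interferon-stimulated genes (dark red), 54 other interferon-induced genes (orange) and 30 genes of interferon signalling (blue); dotted lines mark 2-fold. At the left 2-fold line the curves stand at 8.46% for all genes, 38.5% for interferon-stimulated genes, 27.8% for other interferon-induced genes and 0 for signalling genes.

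Chromosomes as a whole were shifted between these arrays, so each member was also set against the median of its chromosome. The members measured lay on 15 chromosomes, 5 on chromosome 7 (median log2 ratio of its genes -0.32) and 3 on chromosome 12 (-0.38), the pair with the lowest medians, and 0 on chromosome 13 (0.56), which had the highest of the autosomes. Relative to the median of their chromosome, which by construction splits its measured genes evenly, 36 members were lower. With signals centred chromosome by chromosome, 15 members were at least 2-fold lower, against 8.1% of all measured genes. These were not the same 15 as before, since Ifi27 dropped to -0.86 and Rtp4 entered at -1.06. Of the 31 members outside chromosomes 7 and 12, 11 (35.5%) were at least 2-fold lower and 0 higher, with a median of -0.61. Of measured genes on all chromosomes 8.46% were lower and 6.08% higher by that much. On chromosomes 7 and 12 alone, 13% and 14.1% were lower, and the share outside them was not counted. Genes of the same chromosome did not all move alike: on chromosome 7 Trim30a and Irf7 were at -3.22 and -2.84, but Trim21 and Isg20 at -0.17 and 0.05.

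**Figure D4:**
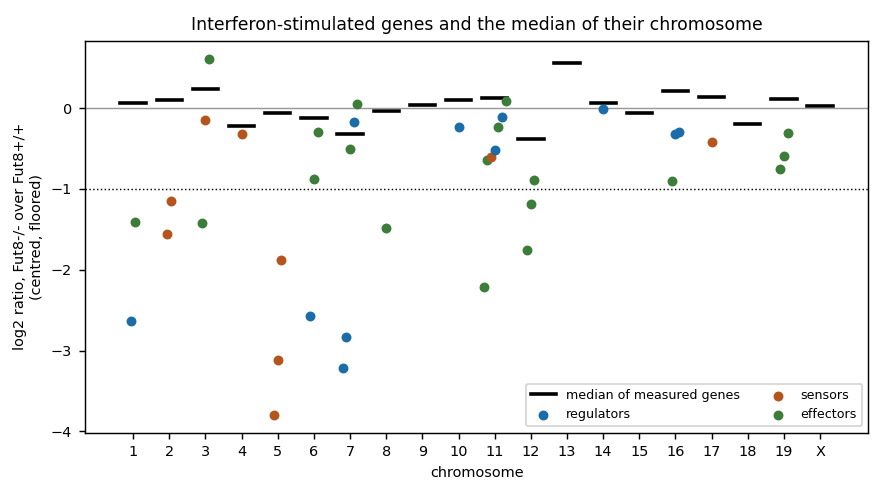
Log2 ratio of Fut8-/- over Fut8+/+ (centred and floored) of the 39 measured interferon-stimulated genes by chromosome, coloured as regulators (blue), sensors (orange) and effectors (green), with the median of all measured genes of each chromosome (black bars). The genes at least 2-fold lower, under the dotted line, are spread over chromosomes 1, 2, 3, 5, 6, 7, 8, 11 and 12, and 36 of the 39 lie under the bar of their chromosome.

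The arrays differed in ways beyond the interferon genes, whose part in these results was not tested. Fut8 read 191 and 11.7, 14.1-fold lower on the array labelled Fut8-/-; the labels do not say if its probe set reads the disrupted part. The cultures differed in sex-linked transcripts, Xist reading 656 and 15.2, and Eif2s3y 7.06 and 2845, Kdm5d 0.404 and 655 and Uty 7.59 and 413. This is the pattern of a female Fut8+/+ and a male Fut8-/- culture. Genotype and sex therefore cannot be told apart on these 2 arrays. Fibroblast markers were measured for 13 of 17, with 6 past 2-fold downward (46.2%) and 1 upward (7.69%). Of all measured genes 8.46% were past 2-fold downward and 6.08% upward. The summed signal of these markers was 52573 and 41663, with Dcn at the floor on both arrays. Lower were Prrx1 (221 and 7.26, at least 17.9-fold), Fbln2 (5.06-fold), Fn1 (3.25-fold), Col5a1 (2.98-fold), Col1a1 (2.59-fold) and Pdgfra (2.26-fold), and Pdgfrb was 2.13-fold higher. Prrx1 and Pdgfra passed the measured limit through the Fut8+/+ array alone. Leukocyte markers summed to 301 and 218 over 13 genes, 3 of them measured, with Ptprc, Adgre1, Itgam, Aif1, Cd52 and Cd3e at the floor on both arrays. The 3 measured were Cd14 (122 and 62.4, -0.75), Csf1r (46.7 and 34.0, -0.24) and Laptm5 (21.9 and 35.7, 0.92). Laptm5 passed the measured limit through the Fut8-/- array alone. Dendritic cell markers other than Bst2 summed to 29.97 and 19.9, with Siglech, Itgax, Cd83 and Ccr7 at the floor. Endothelial markers summed to 373 and 255 over 10 genes, with 2 measured and Pecam1, Tie1 and Emcn at the floor. Those 2 were Egfl7 (193 and 113, -0.55) and Eng (52.0 and 62.1, 0.47). Epithelial markers summed to 119 and 311 over 9 genes, with 3 measured and Cdh1, Krt18 and Cldn4 at the floor. Of those 3, Krt19 (2.08 and 155, at least 14.6-fold) and Dsp (5.07 and 71.1, at least 6.70-fold) were higher and Epcam 2.43-fold lower. Krt19 and Dsp passed the measured limit through the Fut8-/- array alone, and Epcam through the Fut8+/+ array alone.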

How the data were processed

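The values are the authors' deposited signal intensity values, linear, 1 per probe set and array. Per the submitters' processing notes GCOS, Affymetrix's own software, produced them; no version, signal algorithm or scaling target is stated. The columns had medians of 20.5 (Fut8+/+) and 16.9 (Fut8-/-), so scale and centring stay unknown. Groups follow the genotype labels. The Fut8-/- signals were multiplied by 1.16 (the centring above), signals under the 40th percentile of both arrays pooled (12.3) were raised to it, and genes whose brighter array reached the 60th percentile (39.1) were counted as measured. A gene took its probe set with the highest mean log2 signal. Members, roles, gene lists and settings were chosen with earlier results of these data known. Outside the members, Fut8, 4 sex-linked genes, the 4 measured genes with the largest absolute ratio per list and key receptors, kinases and factors were to be named. With 1 array per genotype no p-value is given, and the number of arrays limits the precision. The steps were tested on simulated data; 10 alternatives were run. Python 3.11.15, pandas 2.3.3 and statsmodels 0.14.6 (loess) were used.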

Additional observations from a re-analysis of the deposited data

How the results depend on the processing

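Over the 10 alternative settings, the count of members at least 2-fold lower ran from 12 of 33 (filter at the 75th percentile) to 18 of 39 (no centring), the count at least 2-fold higher was 0 in each, and the median log2 ratio ran from -0.86 (no centring) to -0.61 (no filter, where all 41 counted and 15 were lower, and the mean over probe sets). No centring moved the median of all genes to -0.23. Of the 15 lower members, 13 stayed past 2-fold in every alternative in which they were measured. The exceptions were Ifi27, at -0.86 with each chromosome centred, and Xaf1, which reversed to 0.28 with the median or the mean over its probe sets. With the filter at the 75th percentile, which tests fewer genes, 9 of 34 other interferon-induced genes and 3 of 6 sensors were at least 2-fold lower. Of all genes measured at this filter, 6.05% were. Leaving out Xaf1 and Gbp2, or chromosomes 7 and 12, was chosen after seeing the data. No paired analysis was possible because each genotype has 1 array. The floor limits Oas2 (log2 ratio -1.45 with the floor at the 60th percentile) and Sp100 (-1.87).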

Other observations

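Some members sit next to each other on a chromosome, and neighbours could be compared without a choice of values. With at most 1 coding gene between them in the gene order of GRCm38.p6 there were 4 pairs. Parp14 and Parp9 on chromosome 16 had log2 ratios of -0.30 and -0.32, and Ifit2 and Ifit3 on chromosome 19 had -0.31 and -0.75. Rsad2 and Cmpk2 on chromosome 12 had -1.76 and -0.89. Gbp3 and Gbp2 on chromosome 3 stood apart, at -1.42 and 0.61, and Gbp2 read -0.16 at its other probe set.

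The higher genes among the other interferon-induced genes were Ifitm1, the immunity-related GTPase gene Ifi47 (97.3 and 321, 3.84-fold), Slfn8 (19.3 and 62.1, 3.75-fold) and the inflammatory caspase gene Casp1 (0.692 and 35.1, at least 3.31-fold). They were named after their values were seen.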
